A study of Mus musculus with 12 samples.

Results

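Mouse embryonic stem cells carrying a Bod1l knockout were compared with wild-type cells while both were exposed to etoposide. The comparison used 6 of the 12 RNA sequencing libraries of the series, chosen by sample title: 3 labelled as Bod1L knockout with tamoxifen and etoposide, and 3 labelled as Bod1L wild type with etoposide. The other 6 libraries were the same genotypes without etoposide. They entered the estimate of spread and the test of whether the genotype difference changed with the drug. Embryonic stem cells are pluripotent cells derived from the early embryo. Tamoxifen appears in the labels of the knockout and not in those of the wild type, so effects of the knockout and of tamoxifen cannot be told apart. Dose, exposure time, cell line and the deleted part of Bod1l are not given in the sources used here. The labels call the replicates biological without describing separate cultures, so each p-value measures the spread between these libraries, which may be technical.

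BOD1L is a large protein of the SETD1A complex, which adds methyl groups to lysine 4 of histone H3 at active promoters. It is also known to protect stalled replication forks from being degraded. Etoposide holds topoisomerase II on the DNA it has cut, and the resulting breaks are detected by the MRN complex and the ATM and ATR kinases, repaired by end joining or recombination, and answered by p53. The title of the series asks about DNA repair genes that depend on BOD1L, and the libraries compared here give the RNA level of such genes in cells under that kind of damage.

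Levels are TPM, a length-scaled share of all transcripts, given for single libraries in replicate order or as mean ± SD (n = 3). Differences are knockout minus wild type on the log2(TPM + 1) scale ± SE, which understates the change of genes with low levels. A gene was called when its limma p-value, adjusted by Benjamini-Hochberg over all genes tested, was under 0.05. In bulk RNA, fewer cells expressing a gene and less RNA per cell cannot be told apart.

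Bod1l lies on chromosome 5 from 41944881 to 42001695 (GRCm39). It stood at 46.5, 51.1 and 48.6 TPM in the wild-type libraries and at 12.95, 12.4 and 11.7 TPM in the knockout libraries. The groups did not overlap. The knockout retained 25.3% of the wild-type level, a difference of −1.90 ± 0.05 (adjusted p = 2.48e-10). The tables give 1 value per gene, so the remaining RNA cannot be placed inside or outside the deletion. Within 1 Mb of Bod1l, Rab28, named here for its position, was the only other gene tested, and it did not pass the test (0.08 ± 0.07, adjusted p = 0.399).

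The wild-type libraries held an estimated 5.78 to 7.04 gigabases of aligned sequence and the knockout libraries an estimated 6.88 to 7.76. Over all genes, whose levels are not independent, libraries of the same group correlated at r = 0.995 and libraries of different genotype at 0.982 to 0.983. The stem cell label was checked against 10 markers, whose summed level was 8490 to 8786 TPM in wild type and 7945 to 8281 TPM in the knockout, with none at 0. Fibroblast markers, included because stem cells are often grown on feeder cells, summed to 22.3 to 23.6 TPM in wild type and 22.4 to 23.9 TPM in the knockout, and 3 of 14 stood at 0 in all 6 libraries. Markers of extraembryonic endoderm and neuroectoderm overlapped between the groups. Those of trophectoderm were lower in all knockout libraries (95.3 to 99.4 against 105.5 to 109.1 TPM) and those of mesoderm higher (27.8 to 28.7 against 23.8 to 25.6 TPM). By gene, 3 of the 11 trophectoderm markers tested were called higher and 2 lower, the abundant Tfap2c (51.8 to 35.5 TPM) and Eomes, and of 7 mesoderm markers tested 2 were higher and 1 lower. Each of the differences in summed level had an exact two-sided permutation p of 0.1, the smallest that 3 against 3 libraries allow.

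Of 14249 genes with a mean of at least 1 TPM over the 6 libraries, 6267 were called (44%). The knockout was lower at 3082 genes (21.6%) and higher at 3185 (22.4%). Most differences were small, and the median over all genes was 0.02. At the 2-fold level the balance was different, with 246 genes called and at least 2-fold lower (1.73%) and 77 called and at least 2-fold higher (0.54%). The classes also differed in abundance: 53 of the 77 had a mean of 1 to 5 TPM, but 75 of the 246. The filter fixed a part of this, since 43 of the 77 had a wild-type mean under 1 TPM. Those 43 could pass only through the knockout and had to be higher there. No overlap between the groups was seen at 3714 genes lower in the knockout (26.1%) and 3995 genes higher (28%). The plot of all genes against abundance shows the fall of single genes at middle levels and the cluster of rises at low ones.

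**Figure D1:**
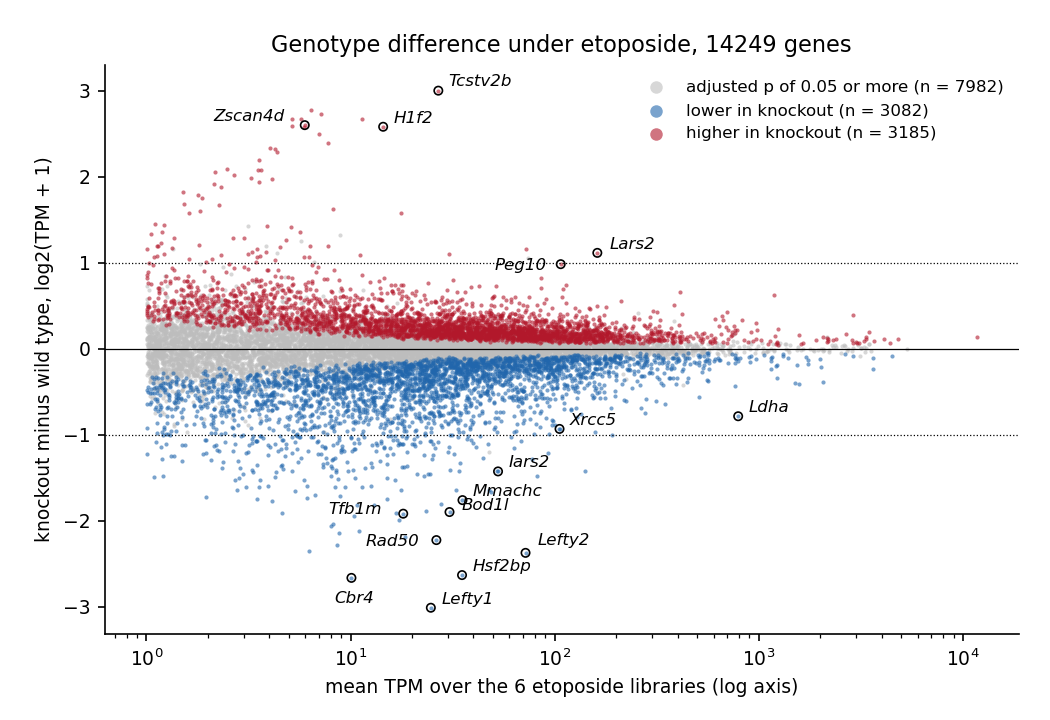
Difference between knockout and wild type under etoposide (vertical axis, log2(TPM + 1)) against mean TPM over the 6 libraries (horizontal, log axis), with 1 point per gene. Blue points were called lower (3082), red higher (3185) and grey not called (7982); dotted lines mark 2-fold, and the large falls such as Lefty1, Hsf2bp and Rad50 lie between 10 and 100 TPM while most large rises lie below 10 TPM.

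The genes that fell furthest were led by Lefty1 and Cbr4. The rule that names them ranks genes whose groups do not overlap, so the gap between their groups is part of the choice and adds no support. Lefty1, a secreted inhibitor of Nodal, lies on chromosome 1 from 180762587 to 180765966. It stood at 47.6, 41.9 and 44.95 TPM in wild type and 4.804, 4.901 and 4.35 TPM in the knockout (−3.01 ± 0.06, adjusted p = 1.09e-10), the lowest difference among the genes that the naming rule ranks. Its neighbour and paralog Lefty2, on chromosome 1 from 180720673 to 180726672, went from 125, 110.4 and 128 to 20.9, 24.8 and 22.3 TPM (−2.37 ± 0.07). Within each genotype the 3 libraries of both genes lay close together.

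Cbr4 encodes the reductase of mitochondrial fatty acid synthesis and lies on chromosome 8 from 61940768 to 61956534. It fell from 18.9, 17.3 and 18.3 to 2.04, 1.75 and 2.31 TPM (−2.66 ± 0.09). Hsf2bp, whose protein binds BRCA2 in meiotic recombination, fell from 66.2, 61.6 and 55.9 to 9.52, 7.52 and 10.3 TPM (−2.63 ± 0.14) on chromosome 17 from 32163743 to 32253869. Rad50, the ATPase of the MRN complex that tethers broken ends, fell from 43.4, 44.02 and 44.6 to 8.796, 8.66 and 8.48 TPM (−2.22 ± 0.05, adjusted p = 1.09e-10) on chromosome 11 from 53540346 to 53598146. The Rad50 libraries lay close together within each genotype, and the mean levels differed 5.09-fold. As for the other genes ranked here, the gap between the groups is part of the choice.

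Alg8, a glucosyltransferase of N-glycan assembly, had 14.5, 15.4 and 14.9 TPM in wild type and 2.25, 2.55 and 3.12 TPM in the knockout (−2.14 ± 0.09). Gatb, a subunit of the enzyme that makes glutaminyl-tRNA in mitochondria, had 20.1, 17.8 and 17.5 and 4.099, 3.101 and 3.28 TPM (−2.12 ± 0.09). Rad9b, a paralog of the checkpoint clamp subunit RAD9A, had 13.3, 15.1 and 12.1 and 2.39, 2.61 and 2.4 TPM (−2.06 ± 0.16). Ercc6l2, a helicase-like protein linked to end joining, was 4.44-fold lower in mean level, Ccdc191 6.57-fold lower and Pigbos1, which encodes a mitochondrial microprotein, 4.33-fold lower.

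Most of the genes that rose furthest belong to the burst of transcription seen in the 2-cell embryo, which a small share of stem cells re-enters. Tcstv2b stood at 6.82, 3.49 and 5.64 TPM in wild type and 54.3, 48.5 and 42.8 TPM in the knockout (3.00 ± 0.17). Zscan4d, a member of the telomere-linked Zscan4 cluster on chromosome 7, stood at 0.892, 0.991 and 1.002 and 11.9, 11.97 and 9.07 TPM (2.60 ± 0.14). Eif1ad8 stood at 0.949, 1.06 and 1.42 and 12.1, 14.2 and 13.4 TPM (2.73 ± 0.12). Tcstv2c, Eif1ad3, Zscan4a, Eif4a3l1, Eif1ad7, Tcstv1b, Usp17lb and Eif1ad15 followed, with differences from 2.77 ± 0.17 for Tcstv2c down to 2.29 ± 0.16 for Eif1ad15. These are near-identical multicopy genes between which reads can be split, so the value of a single copy is uncertain. The list of such genes holds 25 found in the tables, 19 of which passed the filter on low levels, 15 of them with a wild-type mean under 1 TPM. Those 15 could pass only through the knockout and had to be higher there. The summed level over all 25 was 18.2 to 20.5 TPM in wild type and 172.9 to 195.1 TPM in the knockout. Duxf3, a list member below the filter chosen after its values were seen, did not rise. It stood at 0.0089, 0.036 and 0.0 TPM in wild type and 0.019, 0.0 and 0.0 TPM in the knockout.

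A linker histone was the other gene near the top. H1f2 rose from 3.79, 3.31 and 3.15 to 24.9, 23.2 and 28.4 TPM (2.58 ± 0.10), while H1f0, the linker histone of slowly dividing cells, rose from 12.04 ± 0.648 to 20.9 ± 0.906 TPM (0.75 ± 0.05). Among the other members that passed the filter, H1f1 rose (0.90 ± 0.17), H1f5 was called higher but, with a wild-type mean of 0.4595 TPM, could pass only through the knockout, and H1f10 stood at 26.4 and 25.5 TPM (−0.05 ± 0.06, not called). Summed over the 10 linker histone genes in the tables, the level was 41.9 to 47.6 TPM in wild type and 76.1 to 84.04 TPM in the knockout. The sum over 46 replication-dependent core histone genes was 37.8 to 46.4 TPM against 88.0 to 89.9 TPM. Messages of replication-dependent histones mostly lack a poly(A) tail and the RNA was poly(A) selected, so these levels are those of the captured RNA only, and a part of capture in the difference was not tested.

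**Figure D2:**
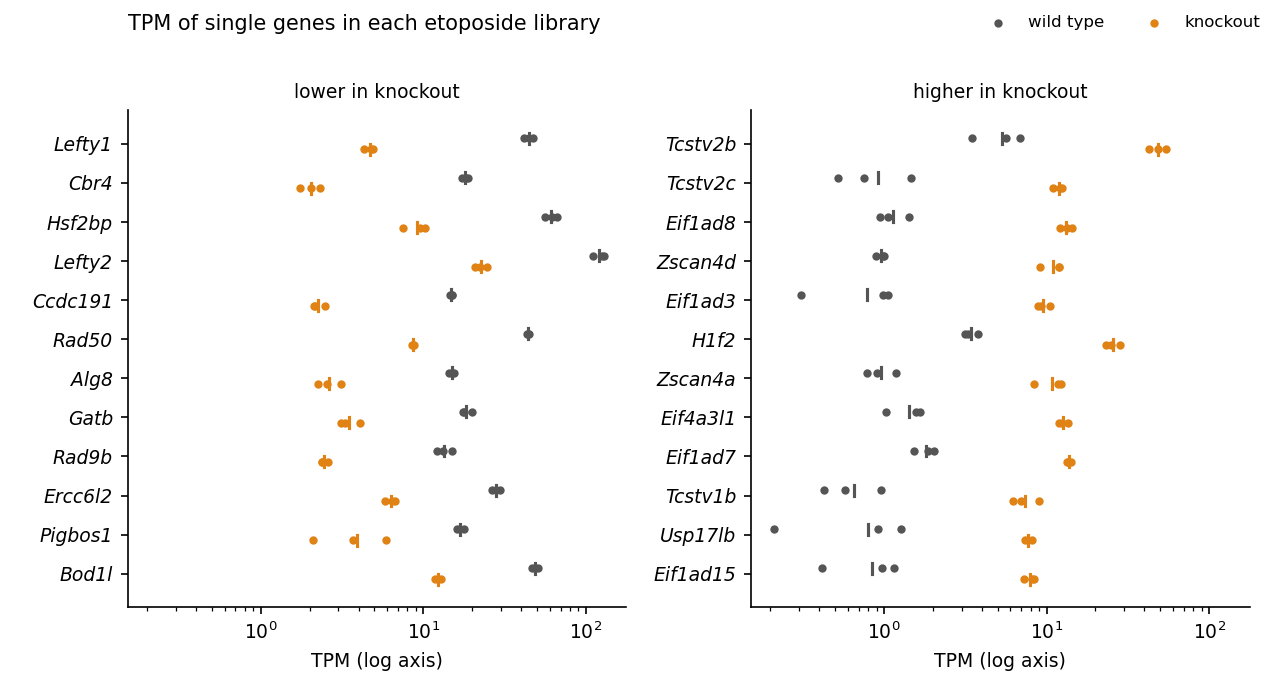
TPM of single genes in each of the 6 etoposide libraries (horizontal, log axis), wild type in grey and knockout in orange, with a bar at the mean of 3. The left panel holds genes that fell and Bod1l, and the right panel genes that rose. Apart from Bod1l, the genes were chosen for groups that do not overlap, and the fold change is read from the distance between the bars.

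By the amount of RNA, the largest falls were in abundant messages. Dppa5a, a stem cell RNA-binding protein, fell from 3932 ± 195 to 3335 ± 119 TPM. The glycolytic enzyme genes Pkm, Aldoa, Ldha and Eno1 followed, and then Tmsb10, an actin-binding peptide (2164 to 1875 TPM). The largest rises were in Eef1a1, which carries tRNA to the ribosome (11156 to 12283 TPM, 0.14 ± 0.02), and in translation genes such as Pabpc1 (3241 to 3727 TPM) and Rps15 (2508 to 2838 TPM). The call of Eef1a1 was lost under quantile normalization, which sets the top gene equal in all libraries (adjusted p = 1).

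Many of the genes at least 2-fold lower started close to another gene on the opposite strand. Such head-to-head genes often share one promoter region. A tested partner started within 1 kb in 84 of the 246 (34.1%), against 2295 of all 14249 genes (16.1%). Within 500 bases the shares were 31.3% and 13.8%. The share was higher in each abundance class up to 100 TPM: 38.7% against 10.9% at 1 to 5 TPM, 31% against 13.7% at 5 to 20 TPM, and 35.8% against 19.6% at 20 to 100 TPM. Of the 77 genes at least 2-fold higher, 5 had such a partner (6.49%), but 43 of the 77 passed the filter only through the knockout.

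Most partners did not fall as far. The partner was itself at least 2-fold lower in 8 of the 84 cases (9.52%), which are 4 pairs seen from both sides, against 3.66% of the 2295 head-to-head genes. It was called lower in 27 cases (32.1%, against 30.2% of head-to-head genes), called higher in 17 (20.2%, against 20%) and not called in 40, and its median difference was 0.01. In 24 of the 84 the genes overlapped at their starts, so that no stretch lay between them. In 60 of the 84 the gene that fell was the less abundant of the pair in wild type, with a median of 13.2 TPM against 32.4 TPM for the partner. The 246 genes at least 2-fold lower were themselves low, with a wild-type median of 13.3 TPM against 21.15 TPM over all genes. How much of the imbalance comes with that choice was not tested. The kit was strand-specific per the labels' protocols, but the sources used here do not say if reads were assigned by strand. Whether reads from the overlapping ends of such genes were kept apart is therefore not known.

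Rad9b and Vps29, a trafficking gene, start 94 bases apart in the deposited coordinates. Vps29 stood at 43.4, 44.99 and 44.5 TPM in wild type and 46.2, 45.8 and 45.1 TPM in the knockout (0.04 ± 0.04, adjusted p = 0.355), while Rad9b held 18.3% of its wild-type level. Rad51c, a recombination gene, fell from 14.2, 14.1 and 14.1 to 3.72, 3.43 and 3.69 TPM (−1.71 ± 0.06). Its partner Tex14, a gene of germ cell bridges, fell less (16.6 ± 0.813 to 11.3 ± 0.585 TPM, −0.51 ± 0.06). In the pair of Orc5, a subunit of the origin recognition complex, and the uncharacterised 6030443J06Rik, both fell: Orc5 from 109, 112 and 111 to 42.6, 47.2 and 45.01 TPM (−1.28 ± 0.04), and the partner from 5.07 to 1.898 TPM (−1.07 ± 0.08). Orc5 and the partners Vps29, Tex14 and 6030443J06Rik were chosen after their values were seen.

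**Figure D3:**
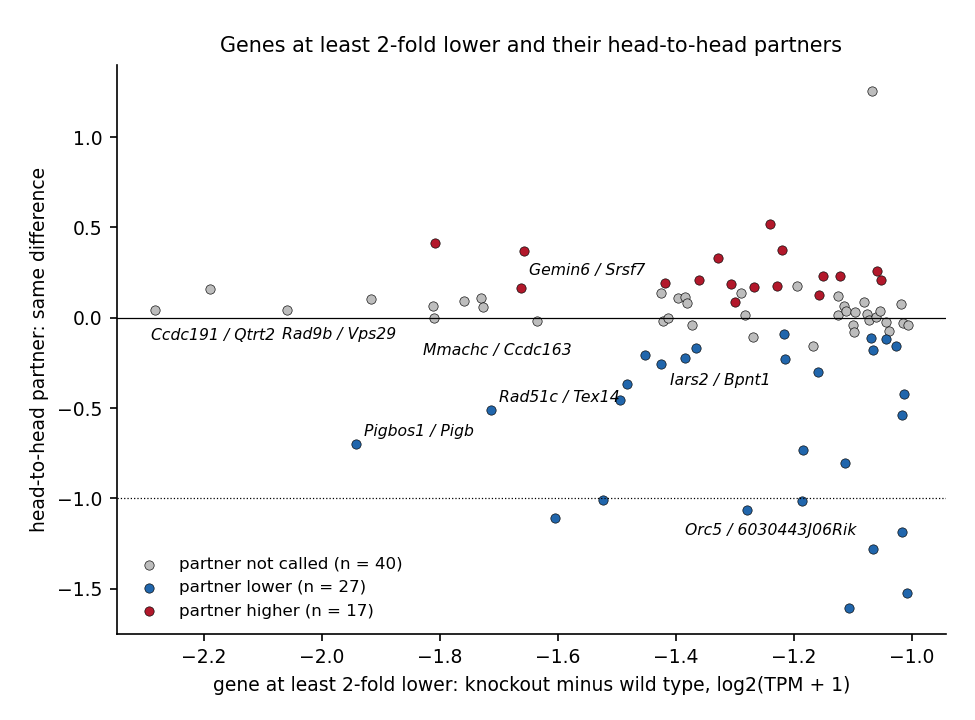
Difference of a head-to-head partner (vertical) against that of the gene at least 2-fold lower (horizontal), both knockout minus wild type on the log2(TPM + 1) scale, for 84 genes with a partner starting within 1 kb. Blue partners were called lower (27), red higher (17) and grey not called (40); most partners lie near 0, and those below the dotted line, such as the partner of Orc5, were at least 2-fold lower too.

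The promoters of genes described above show the letters behind these classes. They were taken from RefSeq (build GRCm38.p6, which differs from the GRCm39 build of the deposited tables) and are written 5′ to 3′ on the strand of the named gene, ending at the base before its start. For the head-to-head genes the stretch runs from the partner's start to the gene's own. The examples were picked after values were seen. Capitals mark any of 8 motifs on either strand: GGGCGG of the GC box, GCGCATGC of NRF1, CCGGAAG of ETS factors, AAGATGGCG of YY1, CCAAT of NF-Y, TGACGTCA of CREB and ATF factors, TATAAA of the TATA box and TTTGAA of TCF and LEF factors. None of them contains another.

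The stretch between Orc5 and 6030443J06Rik (chr5:22550339-22550412, minus strand), where both genes fell, holds TGACGTCA with a GGGCGG and a CCGGAAG.
Orc5: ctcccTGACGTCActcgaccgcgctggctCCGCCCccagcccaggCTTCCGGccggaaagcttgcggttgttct
Those of Rad9b (chr5:122354206-122354327, minus strand), whose partner Vps29 did not pass the test, and Rad51c (chr11:87404955-87405064, minus strand), whose partner Tex14 fell less, hold a GGGCGG each.
Rad9b: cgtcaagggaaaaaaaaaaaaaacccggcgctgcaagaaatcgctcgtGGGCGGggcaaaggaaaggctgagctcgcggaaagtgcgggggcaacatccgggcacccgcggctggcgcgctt
Rad51c: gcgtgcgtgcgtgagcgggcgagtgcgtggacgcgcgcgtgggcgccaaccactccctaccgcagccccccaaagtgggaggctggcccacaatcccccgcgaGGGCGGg
Alg8 (chr7:97371367-97371616, plus strand), which has no such partner, holds GCGCATGC more than once.
Alg8: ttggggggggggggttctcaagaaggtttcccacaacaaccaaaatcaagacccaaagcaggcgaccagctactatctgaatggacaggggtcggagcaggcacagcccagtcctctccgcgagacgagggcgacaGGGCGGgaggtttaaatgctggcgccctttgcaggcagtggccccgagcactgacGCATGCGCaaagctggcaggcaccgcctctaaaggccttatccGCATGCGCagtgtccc
For contrast, the promoters of the genes that rose, Zscan4d (chr7:11166149-11166398, minus strand) and H1f2 (chr13:23738557-23738806, plus strand), are poorer in G and C.
Zscan4d: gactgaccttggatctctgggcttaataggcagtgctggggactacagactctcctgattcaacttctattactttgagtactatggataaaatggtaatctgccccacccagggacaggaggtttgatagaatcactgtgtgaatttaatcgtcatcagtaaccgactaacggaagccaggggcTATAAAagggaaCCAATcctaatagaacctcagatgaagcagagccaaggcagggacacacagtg
H1f2: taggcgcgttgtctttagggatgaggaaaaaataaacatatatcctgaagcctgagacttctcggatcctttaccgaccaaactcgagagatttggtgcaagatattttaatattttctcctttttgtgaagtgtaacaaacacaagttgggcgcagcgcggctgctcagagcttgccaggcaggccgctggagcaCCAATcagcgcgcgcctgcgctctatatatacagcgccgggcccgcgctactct

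Over whole classes, a RefSeq promoter of 300 bases (250 before and 50 after the start) was matched by symbol for 10537 of the 14249 genes, 191 of the 246 and 39 of the 77. TGACGTCA was found in 6.81% of promoters of genes at least 2-fold lower and in 3.2% of all promoters. CCGGAAG was in 23.6% against 18.3%, and GCGCATGC in 8.38% against 5.54%. The other motifs were no more frequent by over 1 percentage point: GGGCGG was in 60.7% against 63.8%, CCAAT in 31.4% against 39.6%, TATAAA in 5.76% against 6.91%, AAGATGGCG in 1.57% against 3.22% and TTTGAA in 12.6% against 12.1%. Among genes at least 2-fold higher TATAAA reached 30.8% and CCAAT 53.8%, while GGGCGG was in 25.6%. Of those 39 promoters 8 belong to the near-identical 2-cell genes, and 19 to genes with a wild-type mean under 1 TPM, which passed the filter only through the knockout. The median GC content of their promoters was 47.7% against 60.7% over all, and that of the genes at least 2-fold lower was 59%. A match is a run of letters and not a bound site.

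The partners of BOD1L in the SETD1 complex differed little. Of the 12 genes in the list, which includes Bod1l, 4 were lower and 3 higher, and Bod1l alone passed 2-fold. Among all genes 21.6% were lower and 22.4% higher. Setd1a, the catalytic subunit, stood at 95.1, 98.6 and 93.97 TPM in wild type and 101, 101 and 95.9 TPM in the knockout (0.05 ± 0.03, adjusted p = 0.238). Setd1b, the other catalytic subunit, fell (−0.19 ± 0.05), while the core subunits Rbbp5 (0.20 ± 0.05) and Wdr5 (0.10 ± 0.03) and the CpG-binding subunit Cxxc1 (0.19 ± 0.05) rose. Bod1, the shorter paralog, stood at 75.8 and 78.8 TPM (0.06 ± 0.04, not called). Of 16 MLL methyltransferase, partner and H3K4 demethylase genes, 4 were lower and 2 higher, the furthest being Pagr1a (−0.57 ± 0.05), an MLL3 and MLL4 partner, and the demethylase Kdm5b (−0.26 ± 0.03).

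Of 15 genes for topoisomerases and the release of trapped topoisomerase, 6 were lower and 3 higher, with a median of −0.004. Among all genes 21.6% were lower and 22.4% higher. Within this list the differences were mostly small. Xrcc5, described with end joining, was the furthest of the 15. Top2a, the topoisomerase II of dividing cells, stood at 391, 400.4 and 403 TPM in wild type and 357, 377 and 374 TPM in the knockout (−0.11 ± 0.03, adjusted p = 0.00594). Top2b stood at 18.7 ± 0.432 and 18.6 ± 1.47 TPM (−0.01 ± 0.06, not called). Tdp2, the phosphodiesterase that removes topoisomerase II from DNA ends, was higher (0.16 ± 0.05, adjusted p = 0.0138), but did not pass the test without knockout replicate 2 (adjusted p = 0.0607). Of 11 genes for efflux pumps and drug handling, 7 passed the filter, all of them efflux pumps, with 2 higher and 2 lower. Abcb1b rose (104 ± 5.75 to 125 ± 4.81 TPM, 0.25 ± 0.05), Abcc5 rose (0.40 ± 0.10) and Abcg2 fell (−0.21 ± 0.04). Abcb1a fell (−0.13 ± 0.05), but did not pass the test when any library other than knockout replicate 2 was left out (adjusted p = 0.0541 to 0.107), with the replicate number as a block (0.0551), with the 6 libraries alone (0.0555) or with quantile normalization (0.162).

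DNA repair and checkpoint genes were lower more often than higher. Of 194 tested genes in 11 lists, 95 were called lower (49.0%, against 21.6% of all genes) and 37 higher, and 13 were at least 2-fold lower (6.7%, against 1.73%). Their median difference was −0.13, against 0.02 over all genes. All gene lists were chosen with earlier results of these data known, so an excess over all genes is a description and adds no support. The comparison also makes no allowance for abundance: 29.2% of all genes at 1 to 5 TPM were called, and 52% above 100 TPM. The genotype difference of 1 of the 194 differed from that without etoposide, against 1.22% of all genes.

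The break-sensing and end-resection genes had 7 of 14 lower and 1 higher. Rad50 was far below the rest of its complex: Mre11a, the nuclease, stood at 37.3, 37.9 and 38.1 and 32.5, 33.5 and 33.6 TPM (−0.18 ± 0.04), and Nbn, the adaptor to ATM, at 31.1 ± 1.68 and 27.6 ± 2.68 TPM (−0.17 ± 0.08, not called). Wrn, a helicase with an exonuclease, fell from 8.07, 8.55 and 8.75 to 4.64, 3.87 and 4.41 TPM (−0.84 ± 0.08). Brca1 stood at 82.1 ± 1.24 and 82.9 ± 0.275 TPM (0.01 ± 0.04, adjusted p = 0.773).

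Strand exchange was the repair list with the largest share lower, 17 of 24, with 2 higher and a median of −0.27. Besides Hsf2bp and Rad51c, Mcm8, a helicase of recombination, fell from 27.4, 27.3 and 28.03 to 10.5, 9.79 and 10.1 TPM (−1.36 ± 0.05), and Fignl1, an AAA ATPase of recombination, from 128, 124 and 127 to 67.5, 70.6 and 71.7 TPM (−0.84 ± 0.04). Chosen after their values were seen, Rad51b (−1.73 ± 0.17), Palb2 (−0.56 ± 0.06) and Brca2 (−0.42 ± 0.05) also fell. Among the resolvases that cut recombination intermediates, Gen1 (−0.76 ± 0.05) and Eme1 (−0.50 ± 0.04) fell and Slx4, a scaffold for such nucleases, rose (0.14 ± 0.04).

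End-joining genes had 7 of 15 lower and 2 higher. Xrcc5, which encodes Ku80, fell from 142, 135 and 140.1 to 70.97, 72.3 and 73.9 TPM (−0.93 ± 0.03), and Prkdc, the DNA-dependent kinase that Ku recruits, from 22.2, 24.4 and 23.01 to 12.3, 12.1 and 12.5 TPM (−0.86 ± 0.05). Poll (−0.91 ± 0.08) and Nhej1 (−0.69 ± 0.10), a gap-filling polymerase and the XLF factor, fell with them. Lig4, the ligase of the last step, stood at 12.4 ± 0.9603 and 12.1 ± 0.818 TPM (−0.03 ± 0.07, not called), and Paxx rose from 1.84 to 3.17 TPM (0.56 ± 0.16).

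Of 20 checkpoint genes, 9 were lower and 4 higher. Atr, the kinase that answers single-stranded DNA, fell from 26.98, 27.3 and 28.7 to 11.8, 12.7 and 12.5 TPM (−1.10 ± 0.06, adjusted p = 1.02e-07). Atm, which answers double-strand breaks, stood at 35.5, 37.7 and 38.9 and 37.1, 39.3 and 38.6 TPM (0.04 ± 0.04, adjusted p = 0.541), and its groups overlapped. Rad1, of the 9-1-1 clamp, fell (−0.58 ± 0.05), as did Topbp1, which activates ATR there (−0.33 ± 0.02). Cdc25c, a phosphatase that drives entry into mitosis, rose (0.30 ± 0.06).

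The list of 53BP1, shieldin and BRCA1-A genes had 9 of 21 lower and 4 higher. Babam2 (63.2 to 25.7 TPM, −1.27 ± 0.06) and Abraxas1 (20.5 to 8.69 TPM, −1.15 ± 0.07), both of the BRCA1-A complex, were at least 2-fold lower. Rnf168, the ligase that marks chromatin near breaks, was 1.64-fold lower in mean level and the adaptor Mdc1 1.497-fold lower. H2ax, the histone that ATM phosphorylates at breaks, rose from 609, 587 and 585 to 759, 791 and 855 TPM (0.43 ± 0.04).

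In the Fanconi list, 13 of 21 genes were lower and 5 higher (3 without knockout replicate 3). Fancd2, which is ubiquitinated at crosslinks, fell from 47.2, 47.7 and 47.3 to 24.96, 25.4 and 25.02 TPM (−0.89 ± 0.03), and Fancl, the ligase that does so, was 1.72-fold lower in mean level. Ercc4, a nuclease subunit, rose (0.32 ± 0.07). Base excision genes had 11 of 25 lower and 3 higher, with Neil2 (−1.28 ± 0.11), Ogg1 (−0.54 ± 0.05) and Apex1 (−0.35 ± 0.03) lower and Polb (0.29 ± 0.08), Mbd4 (0.24 ± 0.05) and the scaffold Xrcc1 (0.21 ± 0.03) higher. Nucleotide excision genes were more even, 9 of 24 lower and 7 higher, with Gtf2h3 (−0.74 ± 0.04) and Gtf2h4 (−0.64 ± 0.05) of TFIIH lower and Ercc6 (0.28 ± 0.05) and Ercc3 (0.22 ± 0.03) higher. The translesion and fork list had 7 of 21 lower, among them Poli (−1.23 ± 0.06) and Primpol (−0.84 ± 0.08), and 8 higher, among them Polk (0.33 ± 0.06) and Polh (0.20 ± 0.05), but 4 higher without wild-type replicate 1 or knockout replicate 2. Of 10 mismatch genes 3 were lower and 3 higher, including Mlh3 (−0.98 ± 0.05) and Msh3 (0.36 ± 0.06).

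**Figure D4:**
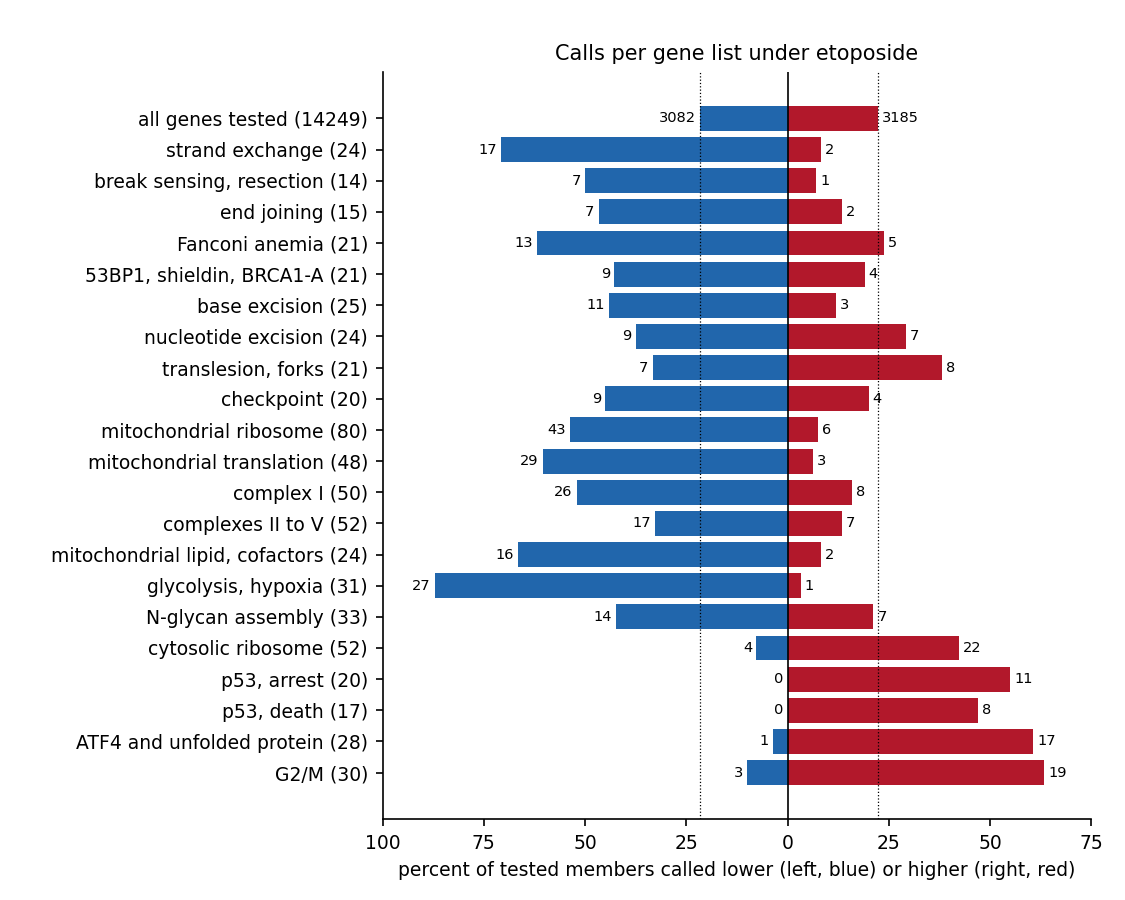
Share of the tested members of each gene list called lower (left, blue) or higher (right, red) under etoposide, in percent, with the number of calls at the bar's end and of tested members in brackets. Dotted lines carry the shares over all 14249 genes, 21.6% and 22.4%; mitochondrial, glycolysis and repair lists lean left, other than translesion and forks (7 lower, 8 higher), and p53, ATF4 and G2/M lists lean right.

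Nuclear genes for mitochondrial proteins were also lower more often than higher. Of 253 tested genes in 5 lists, 130 were lower (51.4%, against 21.6% of all genes) and 26 higher, with a median of −0.14. At least 2-fold lower were 18 (7.11%, against 1.73%). The limits stated for the repair lists hold here too. The count of higher genes was 15 without knockout replicate 1 and 17 without knockout replicate 2. In translation inside mitochondria, 29 of 48 were lower and 3 higher: after Gatb, Iars2, the isoleucine tRNA ligase, fell from 79.1, 77.1 and 75.98 to 27.6, 29.1 and 27.9 TPM (−1.42 ± 0.04) and Rars2, the arginine ligase, from 49.7, 50.3 and 52.7 to 25.8, 23.7 and 24.6 TPM (−1.01 ± 0.04). Tfb1m, a methylase of mitochondrial ribosomal RNA, chosen after its values were seen, fell from 29.2 to 7.02 TPM (−1.92 ± 0.08).

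Lars2, the leucine ligase, went the other way in that list. It stood at 84.1, 75.5 and 148 TPM in wild type and 304, 166 and 192 TPM in the knockout (1.12 ± 0.28). Wild-type replicate 3 and knockout replicate 1 were the highest of their groups. Mir6236 and Gm15564, entries chosen after their values were seen, had the same high libraries, at 35.6, 32.9 and 62.9 against 148, 65.1 and 89.3 TPM and 15.2, 13.9 and 28.8 against 53.02, 33.2 and 37.7 TPM. What these 3 entries share was not tested.

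The mitochondrial ribosome had 43 of 80 lower and 6 higher (3 without knockout replicate 1 or 3), led by Mrpl11 (44.1, 44.3 and 46.3 to 17.3, 15.7 and 16.01 TPM, −1.41 ± 0.06) and Mrpl33 (106 to 52.4 TPM). Of 50 complex I subunits and assembly factors 26 were lower and 8 higher (5 without wild-type replicate 1 or knockout replicate 1 or 2), with Foxred1, an assembly factor, falling from 54.5 to 24.96 TPM (−1.10 ± 0.04). Complexes II to V had 17 of 52 lower and 7 higher (4 without wild-type replicate 2 or knockout replicate 1, 3 without knockout replicate 2), with Taco1, a translation activator for cytochrome oxidase (−1.45 ± 0.08), and Cox15, of heme A synthesis (−1.02 ± 0.05), at least 2-fold lower. The list of lipid, lipoate and cobalamin genes had 16 of 24 lower, 2 higher and a median of −0.47. There, Mmachc, which processes cobalamin, fell from 55.3, 54.5 and 55.5 to 14.7, 16.03 and 16.01 TPM (−1.76 ± 0.04), Oxsm, the synthase that works with Cbr4, from 4.53 to 0.922 TPM (−1.52 ± 0.10), and Lias, lipoate synthase, was 1.53-fold lower in mean level.

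Glycolysis and hypoxia genes were lower in 27 of 31 cases (21.6% over all genes), with 1 higher (22.4%) and a median of −0.38. Ldha, lactate dehydrogenase, fell from 1022, 929 and 1059.5 to 572, 575 and 598 TPM (−0.78 ± 0.04), Pkm from 2337 ± 77.96 to 1792 ± 36.5 TPM (−0.38 ± 0.03), Tpi1 from 347 ± 22.1 to 206 ± 2.18 TPM (−0.75 ± 0.04) and Pgk1 from 607 ± 39.3 to 412 ± 4.49 TPM (−0.56 ± 0.04). Slc2a3, a glucose transporter, was the member that rose (0.22 ± 0.04). The furthest falls were of the lactate exporter Slc16a3 (33.4, 17.3 and 30.4 to 7.14, 6.37 and 5.25 TPM) and the mitophagy receptor Bnip3 (23.1, 9.72 and 20.6 to 4.51, 4.34 and 5.66 TPM), chosen after their values were seen. In both, wild-type replicate 2 was well below the other wild-type libraries and still above every knockout library.

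N-glycan assembly had 14 of 33 genes lower and 7 higher. Besides Alg8, the mannosyltransferase Alg12 (−0.71 ± 0.07) fell, while Alg2 (0.31 ± 0.05) and the transferase subunit Stt3a (0.19 ± 0.02) rose. In the SMN and small nuclear RNP list of 26, 6 were lower and 7 higher, near the shares over all genes (21.6% and 22.4%). Gemin6, a part of the SMN complex, fell from 73.6, 74.5 and 76.01 to 23.5, 23.2 and 22.01 TPM (−1.66 ± 0.06) and Gemin4 from 100.4 to 63.6 TPM (−0.65 ± 0.04).

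Among the stress lists, the ATF4 list had more genes higher than lower, while the small heat shock list was split. Over all genes 21.6% were lower and 22.4% higher. Of 28 ATF4 and unfolded protein genes, 17 were higher and 1 lower: Atf4 itself rose from 217, 218 and 221 to 258, 256 and 259 TPM (0.24 ± 0.03), Asns, asparagine synthetase, by 0.27 ± 0.02 and Mthfd2, of mitochondrial folate metabolism, by 0.32 ± 0.04. Of 19 NRF2 and redox genes 9 were higher and 3 lower, with Nqo1, a quinone reductase, rising from 72.3 ± 2.16 to 108 ± 2.22 TPM (0.58 ± 0.04) and Keap1, the NRF2 inhibitor, falling (−0.37 ± 0.06). Of 15 heat shock genes 5 were lower, among them the chaperonin Hspd1 (−0.23 ± 0.02), and 3 higher, among them Hspa1b (0.42 ± 0.09), with a median of −0.03. Of 52 cytosolic ribosomal protein genes 22 were higher and 4 lower, with a median of 0.04, and 12 were higher when FPKM was used.

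G2/M genes were higher in 19 of 30 cases and lower in 3, against 22.4% and 21.6% of all genes. Hmmr, a spindle protein, rose from 131, 134 and 134 to 182, 193 and 188 TPM (0.49 ± 0.04) and Aurka, a mitotic kinase, by 0.18 ± 0.02, while Ccnb2, a mitotic cyclin, fell from 146 ± 6.03 to 108 ± 2.696 TPM (−0.42 ± 0.04). S phase genes leaned the other way, with 16 of 36 lower and 1 higher. Ccne1, cyclin E (246 ± 2.65 to 192 ± 2.97 TPM, −0.36 ± 0.02), the replicative helicase subunit gene Mcm6 (−0.22 ± 0.02) and Mcm10 (−0.34 ± 0.03), whose protein helps start that helicase, fell.

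Among signalling genes, the fall of Lefty1 and Lefty2 stood in a Nodal list with 8 of 20 lower and 3 higher. The shares over all genes were 21.6% lower and 22.4% higher. Nodal, the ligand, rose from 152, 157 and 152 to 182, 194 and 186 TPM (0.28 ± 0.03), its coreceptor Cripto fell from 574 ± 15.6 to 476 ± 23.7 TPM (−0.27 ± 0.04), and Skil, a feedback target, fell (−0.61 ± 0.08). In the Wnt list 6 of 17 were higher and 1 lower. The target T, the mesoderm factor brachyury, rose from 0, 2.23 and 2.42 to 4.41, 4.58 and 4.37 TPM (1.29 ± 0.38), Axin2, a feedback target, rose (0.24 ± 0.04), and the repressor Tcf7l1 fell (−0.28 ± 0.04). In the FGF list Dusp6 (0.58 ± 0.06) and Spry2 (0.32 ± 0.03), feedback inhibitors of ERK signalling, rose.

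Core pluripotency factors were near wild-type level. Pou5f1 stood at 1357 ± 18.5 and 1284 ± 19.4 TPM (−0.08 ± 0.02), a call lost when wild-type replicate 1, knockout replicate 1 or knockout replicate 2 was left out (adjusted p = 0.0558 to 0.0676). Sox2 stood at 394 ± 8.38 and 399 ± 22.8 TPM (0.01 ± 0.04, not called). Of 26 naive pluripotency genes 12 were higher and 5 lower, against 22.4% and 21.6% of all genes. Tet2 (0.34 ± 0.04) and Manba (0.35 ± 0.03) were higher and Tfap2c (−0.53 ± 0.04) and Dppa3 (−0.42 ± 0.08) lower. Utf1, a chromatin protein of stem cells, fell from 152, 152 and 143 to 85.3, 90.6 and 97.02 TPM (−0.71 ± 0.04) and Lin28a, which blocks maturation of let-7 RNAs, was 1.34-fold lower in mean level. Of 12 primed-state genes 5 were lower and 1 higher, among them Zic2 (−0.72 ± 0.09) and Dnmt3a (−0.67 ± 0.06), a de novo DNA methyltransferase.

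Imprinted and germline genes moved in both directions, as did all genes tested (22.4% higher and 21.6% lower). Of 27 imprinted genes 9 were higher and 2 lower: Peg10 rose from 71.9, 73.9 and 68.9 to 136, 145 and 147 TPM (0.98 ± 0.04) and Mest from 79.4, 91.2 and 83.99 to 144, 145 and 138 TPM (0.74 ± 0.05), while Mcts2 fell from 81.3 to 40.5 TPM (−1.02 ± 0.23). Of 22 germline genes that passed the filter 10 were lower, among them Smc1b, a meiotic cohesin (5.42 to 1.51 TPM, −1.35 ± 0.10), and Tdrd12, of the piRNA pathway (31.1 to 15.04 TPM), and 6 were higher (2 without wild-type replicate 1), among them Ddx4 (0.49 ± 0.12) and Slc25a31 (0.72 ± 0.17). The Pramel family summed to 125.8 to 132.4 TPM in wild type and 105.9 to 113.4 TPM in the knockout over 32 genes. By gene the family went both ways: 5 of the 9 members tested were called higher, 4 at least 2-fold, and 3 lower. With a wild-type mean under 1 TPM, 3 of the 9 could pass the filter only through the knockout. The abundant members Pramel12 (−0.60 ± 0.06) and Pramel13 (−0.49 ± 0.04) fell, and Pramel7, a naive stem cell factor, rose (3.46 to 9.22 TPM, 1.20 ± 0.09).

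Genes of the p53 lists, which hold p53, its regulators and its targets, were called higher more often than lower, by small amounts. Of 68 tested genes in 4 lists, 37 were higher, 4 lower and 27 not called, and the median was 0.17. Over all genes 22.4% were higher and 21.6% lower, with a median of 0.02. Trp53 itself stood at 531, 534 and 524 TPM in wild type and 528, 532 and 535 TPM in the knockout (0.00 ± 0.02, adjusted p = 0.885). Mdm2, the ligase that p53 induces against itself, rose from 259, 275 and 275 to 361, 355 and 376 TPM (0.43 ± 0.03). Plk2, a stress kinase, rose from 121, 125 and 125 to 172, 168 and 177 TPM (0.47 ± 0.03), Perp, a membrane protein of cell death, by 0.54 ± 0.06, and Ccng1, cyclin G, by 0.26 ± 0.03. Cdkn1a, the main arrest gene, chosen after its values were seen, stood at 218, 220.5 and 228 and 213, 218 and 213 TPM (−0.05 ± 0.04, adjusted p = 0.281). Gls2 (−0.39 ± 0.06), Rrm2b (−0.37 ± 0.06) and Acad11 (−0.30 ± 0.05) were lower, and these belong to the list of metabolism and nucleotide supply. The share higher was 11 of 20 for arrest genes, 8 of 17 for death genes, 9 of 13 for the regulators of p53 and 11 of 21 for metabolism genes (7 without wild-type replicate 1).

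The last question was whether the genotype difference under etoposide differed from that without it. The contrasts share no library, but both came from the same fit and use the same estimate of spread for each gene. A gene with a small spread is more easily called in both, so the overlap of calls is not independent support. Without etoposide 7027 genes were called (49.3%), 3037 lower (21.3%) and 3990 higher (28%). Called in the same direction in both were 5031 genes, 80.3% of the calls under etoposide and 71.6% of those without, and 17 were called in opposite directions. Of the 246 genes at least 2-fold lower under etoposide, 237 were also called lower without it, and of the 77 at least 2-fold higher, 69 were called higher. A further 1219 genes were called under etoposide only, of which 7 differed between the conditions by the test of the difference itself, the interaction.

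The interaction called 174 genes (1.22%): 165 lower (1.16%), where the knockout's excess shrank or its deficit grew under the drug, and 9 higher (0.0632%). At an unadjusted p under 0.05 the count was 1622. Of the 165, 158 were called higher in the knockout without etoposide. The median difference of the 165 was 0.69 without etoposide and 0.21 under it. Choosing genes by the interaction sets the direction of this drop, so the drop adds no support. Under etoposide 102 of the 165 were called higher, 15 lower and 48 not called. Etoposide itself raised 162 of the 165 in wild type and 151 in the knockout. A smaller rise in the knockout than in wild type is again part of the choice. The share of all genes that etoposide raised is not given here for comparison. Leaving out 1 etoposide library gave from 94 calls (without wild-type replicate 3) to 118 (without knockout replicate 2), and 3 to 8 in the higher direction.

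Genes of the p53 lists were among these. The interaction was lower at 22 of the 68 and higher at none, against 1.16% and 0.0632% of all genes. The median difference of the 68 was 0.38 without etoposide against 0.17 with it. Plk2 had an interaction of −0.86 ± 0.05 (adjusted p = 9.9e-06): without etoposide it stood at 32.8, 30.4 and 32.9 TPM in wild type and 82.9, 83.7 and 80.5 TPM in the knockout. Tap1, the peptide transporter of antigen presentation, stood at 1.64, 1.62 and 1.595 and 6.56, 4.92 and 5.63 TPM without etoposide and at 14.4, 14.2 and 14.9 and 19.06, 18.03 and 15.9 TPM with it (−1.08 ± 0.13, adjusted p = 0.00116). Nectin4, an adhesion molecule, behaved alike, with an interaction of −1.09 ± 0.12. In wild type these rises with etoposide were 1.92 ± 0.03 for Plk2, 2.56 ± 0.09 for Tap1 and 2.46 ± 0.09 for Nectin4, and in the knockout 1.06 ± 0.03, 1.48 ± 0.09 and 1.37 ± 0.09. Each of these genes was called lower in the interaction, so the smaller rise in the knockout restates that call.

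Commd5, an adaptor of endosome sorting, crossed over. It stood at 11.2, 9.01 and 6.58 TPM in wild type and 14.97, 15.9 and 16.8 TPM in the knockout without etoposide, and at 11.6, 4.69 and 5.03 and 2.38, 2.28 and 2.902 TPM with it (−1.90 ± 0.36, adjusted p = 0.0252). Its 3 knockout libraries lay above wild type without the drug and below it with the drug. The call was lost without any one of the knockout libraries under etoposide (adjusted p = 0.0554 to 0.0709) and with no filter on low levels (0.0972). In the other direction, Rbm14, a paraspeckle protein, was not called without etoposide (−0.03 ± 0.04) and was higher with it (107, 99.9 and 99.99 against 128, 129 and 129 TPM, 0.33 ± 0.04; interaction adjusted p = 0.0036). Rad50 differed between genotypes by −2.03 ± 0.05 without etoposide and −2.22 ± 0.05 with it (interaction −0.19 ± 0.07, adjusted p = 0.342), and Bod1l by −2.002 ± 0.05 and −1.90 ± 0.05 (interaction 0.10 ± 0.07, adjusted p = 0.632).

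**Figure D5:**
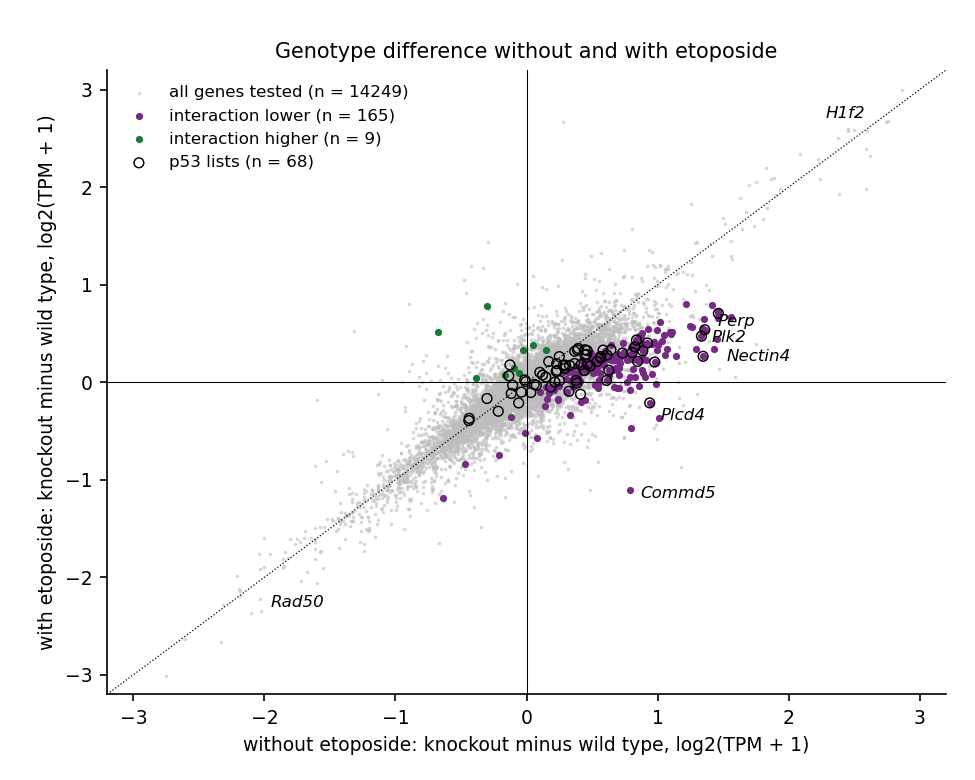
Genotype difference under etoposide (vertical) against that without it (horizontal), both on the log2(TPM + 1) scale, with 1 point per gene and equality on the dotted line. Purple points were lower in the interaction (165), green higher (9), and open circles are the 68 p53 genes. Purple points lie below the line by their choice, and most of them lie right of 0.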

How the data were processed

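Of 12 stem cell RNA libraries in 4 groups of 3, 6 were compared. Per the labels' protocols, Trizol RNA was poly(A) selected and depleted of ribosomal RNA, and the kit was strand-specific. Per the submitters' processing notes, Trim Galore 0.6.6, cutadapt 3.4, HISAT2 2.2.1 and StringTie 2.2.1 were used with GRCm39. Per the file headers, TPM was deposited for each gene, scaled to a fixed total per library. The deposited FPKM values (an alternative here) and the deposited coverage, a signal of mean read depth per gene, are further columns, per the file headers. The most common ratio of coverage to FPKM in a library gave its aligned bases. In the 6 libraries compared, 28.4% to 28.9% of the entries used lay at that ratio, so the depth is an estimate. Since TPM is not a count, no count model was used.

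Entries of one gene ID were summed (41079 IDs). The members, gene lists (62) and tests were chosen with earlier results of these data known. On log2(TPM + 1), limma 3.58.1 (R 4.3.3) was fitted to the 12 libraries with 4 group means and a variance trend (prior df 3.898, residual df 8), with Benjamini-Hochberg adjustment over 14249 genes. The code was tested on simulated data.

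The genes named were Bod1l, the 12 lowest and 12 highest called differences without overlap, the 6 largest TPM differences each way, 6 of the interaction each way, every member of lists of up to 16 names, and the 4 best called members each way of longer lists. Names of clones, gene models and pseudogenes were skipped. Some genes the rule names are not reported here. Alternatives were a pseudocount of 0.1, no filter or a filter of 5 TPM, FPKM rescaled to the same pseudocount and filter, median-of-ratios and quantile scaling, a replicate block, the 6 libraries alone, a robust spread and leaving out each library. Promoters came from RefSeq (GRCm38.p6), matched by symbol. Summed marker levels used an exact permutation test. Python 3.11.15, numpy 2.4.6, pandas 2.3.3, scipy 1.17.1 and matplotlib 3.10.9 were used.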

Additional observations from a re-analysis of the deposited data

Results flagged for a closer look

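The genotype difference under etoposide differed from that without it at 174 genes by the test of the interaction. The lowest interactions were Commd5 (−1.90), Mir7083 (−1.38), Iqcf5 (−1.27), Plcd4 (−1.15), Nectin4 (−1.09) and Tap1 (−1.08). The highest were Prxl2b (0.42), Rbm14 (0.36), Atad2b (0.34), Gemin7 (0.24), Calcoco2 (0.23) and Amotl2 (0.19). Plcd4, a p53-responsive phospholipase gene, stood at 1.17, 2.02 and 1.702 TPM in wild type and 3.22, 4.36 and 4.53 TPM in the knockout without etoposide, and at 10.6, 12.2 and 9.39 and 8.85, 9.76 and 8.64 TPM with it, where the groups overlapped. Iqcf5 stood under 2 TPM in all 12 libraries. The calls of Nectin4, Tap1, Rbm14 and Calcoco2 held under all 14 alternatives run for them. The call was lost for Mir7083 under 10 of 14 alternatives (adjusted p = 0.0564 to 0.156), Iqcf5 under 9 of 13 (0.0551 to 0.127), Gemin7 under 9 of 14 (0.0564 to 0.112), Prxl2b under 8 of 14 (0.0589 to 0.105), Amotl2 under 7 of 14 (0.0662 to 0.116), Atad2b under 5 of 14 (0.0608 to 0.0692), Commd5 under 4 of 13 (0.0554 to 0.0972) and Plcd4 under 1 of 14 (0.0578). The replicate block was among these for Iqcf5, Gemin7, Prxl2b and Amotl2. Groups of 3 libraries were not tested for single libraries far from the others.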

How the results depend on the processing

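No named gene reversed its direction under the alternatives in which it was tested (516 genes, but 515 with FPKM and 455 with the filter of 5 TPM). The number of genes called ranged from 5328 to 5638 when 1 etoposide library was left out, and the share of calls higher in the knockout was 45.8% with FPKM and 56.4% with quantile normalization, against 50.8%. A pseudocount of 0.1 gave 370 genes at least 2-fold lower and 134 higher, and a filter of 5 TPM left 24 higher; the smaller pseudocount shrinks low genes less, and the filter removes low genes. The interaction had 100 calls, 94 lower, with no filter and 102, 95 lower, with quantile normalization. Leaving out 1 library gave 94 to 118 calls, 91 to 115 lower and 3 to 8 higher. Mitochondrial genes called higher numbered 16 with FPKM and 15 to 21 with 1 library left out. Of the named genes tested, 0 lost their call with the filter of 5 TPM and 1 to 46 under each other alternative. The lists of SMN, Polycomb, translesion, BCL2, antigen presentation, DNA methylation, mesoderm and trophectoderm genes changed which direction held more calls under at least 1 alternative, and counts of up to 3 calls in other lists often changed by 1. The causes were not tested.

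Same-numbered libraries did not deviate together (r from −0.049 to 0.05), so the values show no pairing by replicate number. The labels do not say if same-numbered libraries were handled together. With it as a replicate block, 6104 genes were called, 246 at least 2-fold lower and 77 higher, and the interaction called 122, 116 lower. Precision followed abundance: the median SE was 0.139 at 1 to 5 TPM and 0.032 above 100 TPM.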
